A study of Mus musculus with 15 samples.

Results

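Leukemia stem cells of bone marrow (BM LSC) were compared, gene by gene, with their normal counterparts from bone marrow (NBM) in mice that model chronic myeloid leukemia in blast crisis. Of 23359 genes in the authors' deposited table of this pair, 8859 (37.9%) stood at 1 FPKM or more in either group and are described here. FPKM is the number of sequenced fragments assigned to a gene, scaled to the gene's length and to the depth of sequencing. Of these genes, 7557 reached 1 FPKM in both groups, 635 in BM LSC only and 667 in NBM only. The genes nearest to this minimum were Fhl3, at 1.0002 FPKM in BM LSC, and Cd160, at 1.0018 FPKM in NBM, on the inside, and Hoxd9, at 0.9994 FPKM in BM LSC, and Rcbtb1, at 0.9996 FPKM in NBM, on the outside.

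BM LSC came from recipient mice 12 days after they received leukemia cells that co-expressed the human oncogenes BCR-ABL and NUP98-HOXA9, and NBM cells came from normal bone marrow. The labels give female mice of 3 months for both groups and repeat the description of the leukemia model as the strain of both. They name neither the mouse strain nor the markers by which cells were sorted, and do not tell if each of the 3 libraries per group is a mouse of its own. LSC of spleen (SPL), peripheral blood (BL) and gonadal adipose tissue (AT) complete the series of 15 libraries, and their levels are given where they place a BM LSC value. The deposited tables hold 1 pooled value per gene and group, so no value of a single library can be shown, and the authors' q-values may reflect technical spread.

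BCR-ABL is a tyrosine kinase that is always active and that switches on, among other routes, the transcription factor STAT5. NUP98-HOXA9 joins a nuclear pore protein to a homeobox factor and is known for holding on the HOXA program that normal progenitors turn off as they mature. Chronic myeloid leukemia in blast crisis is a state in which immature cells accumulate instead of maturing into granulocytes.

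The pooled columns held 1.65e+07 estimated counts for BM LSC and 1.95e+07 for NBM, and the 10 most abundant genes took 8.32% and 8.66% of them. Although the labels give female mice, transcripts of the Y chromosome were present in both groups: Eif2s3y stood at 12.5 FPKM in BM LSC and 11.4 FPKM in NBM, Ddx3y at 1.57 and 1.80 FPKM, and Kdm5d at 1.15 and 1.10 FPKM, in the same order. Xist, the RNA of the inactive X chromosome, stood at 3.95 FPKM in BM LSC and 4.25 FPKM in NBM. None of these genes was called, and both groups thus go against the label in the same way. The mouse genes Abl1 (1.37 and 1.14 FPKM), Nup98 (1.18 and 0.852 FPKM) and Bcr (0.742 and 0.494 FPKM, below the minimum) were not called either. Whether fragments of the human oncogenes could align to the mouse genes is not given in the sources used here and was not tested.

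BM LSC carried higher levels of Cish, Socs2 and other STAT5 targets, of several HOXA genes with their cofactor Pbx3, and of mast cell, erythroid and megakaryocyte genes, and lower levels of lymphoid, monocyte, dendritic cell and MHC class II genes. Genes of mitosis, ribosome biogenesis and oxidative phosphorylation gave no call. The authors' deposited table, made with Cuffdiff, gave a test for 8736 of the 8859 genes, and a gene was called where its q-value was below 0.05. It called 1393 of them, or 15.9% of those tested, 734 higher (8.4%) and 659 lower (7.54%) in BM LSC. Among all 12823 genes tested at any level, 16% were called, 8.17% higher and 7.85% lower. Among the 7447 tested genes at 1 FPKM or more in both groups, which did not pass the minimum through 1 group alone, 413 were higher and 346 lower. The folds were centred near 0: the median log2 fold of BM LSC over NBM was -0.01 over the genes kept and -0.03 over all genes tested, with quartiles of -0.29 and 0.30 over the genes kept. Of the called genes, 328 were higher and 292 lower by 4-fold or more, and 96 were higher and 61 lower by 16-fold or more. Standard errors of the folds had a median of 0.36 and the smallest fold called was 0.72, so a gene that was not called is not shown to be unchanged. No test was made for 123 genes, among them Kit, the stem cell factor receptor, at 2.93 FPKM in BM LSC and 10.4 FPKM in NBM.

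**Figure D1:**
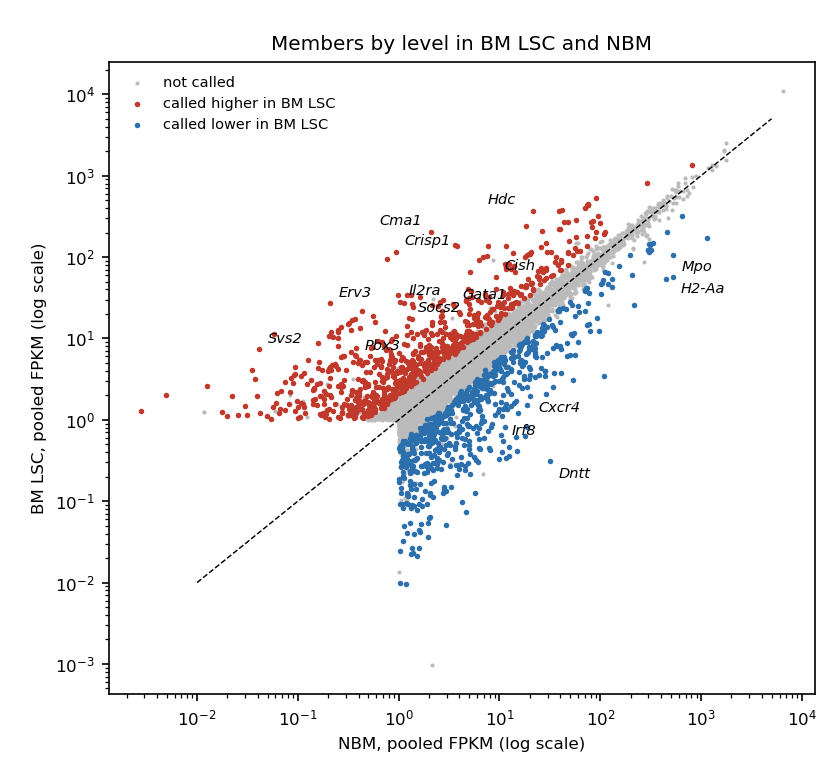
Pooled FPKM of each gene in BM LSC (vertical, log scale) against NBM (horizontal, log scale), 1 point per gene at 1 FPKM or more in either group, with genes at 0 in a group left out. Of the 8736 genes tested, 734 were called higher in BM LSC and lie above the dashed line of equal level, except Nepn, which is at 0 in NBM and not drawn. The 659 called lower lie below the line. Genes not tested are not drawn, and labels mark genes described in the text.

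STAT5 drives genes that feed back on cytokine receptors and genes of survival. The feedback inhibitor Cish stood at 57.3 FPKM in BM LSC (authors' bounds 39.9 to 74.6, which lie 2 SD either side), 34.6 in SPL, 69.0 in BL and 53.9 in AT LSC, against 9.25 FPKM in NBM (6.34 to 12.2). Its log2 fold of BM LSC over NBM was 2.63 ± 0.32 (± is the standard error that the authors' statistic implies), with q listed as 0 in the authors' deposited table. Socs2, a second feedback inhibitor of the same receptors, stood at 17.6 FPKM in BM LSC (11.6 to 23.6) and 7.50 to 9.47 in the other LSC groups, against 1.27 FPKM in NBM (0.636 to 1.90). The bounds of BM LSC and NBM did not overlap for either gene, and every LSC group stood above NBM. Il2ra, the alpha chain of the interleukin-2 receptor, reached 28.3 FPKM in BM LSC and 15.5 to 24.2 in the other LSC groups, against 1.03 FPKM in NBM (log2 fold 4.77 ± 0.38, authors' deposited table).

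Of 18 tested genes of the STAT5 list, 7 were higher and 2 lower, and over the 24 listed genes tested at any level the median fold was 0.21, against -0.03 over all genes tested. The other genes called higher were Osm, the cytokine oncostatin M (33.7 and 10.9 FPKM in BM LSC and NBM), Pim2, a survival kinase (6.88 and 1.66 FPKM), Bcl2l1, which encodes the survival protein BCL-XL (14.6 and 4.75 FPKM), and Spry1, a brake on RAS signalling (1.35 and 0.434 FPKM). Their log2 folds in the authors' deposited table lay at 1.62 ± 0.32, 2.05 ± 0.41, 1.62 ± 0.33 and 1.64 ± 0.45 in that order. Lower in BM LSC were Socs3, the inhibitor that acts on STAT3 cytokine receptors, at 0.273 against 1.16 FPKM, and Ccnd1, cyclin D1, at 0.412 against 1.35 FPKM, with folds of -2.08 ± 0.48 and -1.72 ± 0.43 in the authors' deposited table. The transcripts of the pathway itself were not called: Stat5a stood at 4.07 and 4.38 FPKM, Stat5b at 2.18 and 2.70 FPKM, Jak2 at 1.25 and 1.80 FPKM, and Pim1 at 1.34 and 1.38 FPKM, BM LSC first.

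The promoters of Cish and Csn2 are shown because both genes are textbook STAT5 targets. Csn2, the milk protein beta-casein, was chosen for showing after its values were seen: it stood at 12.8 FPKM in BM LSC (8.68 to 17.0), 3.18 in SPL, 4.33 in BL and 1.92 in AT LSC, against 0.333 FPKM in NBM (0.0727 to 0.593). The STAT motif TTCNNNGAA, which reads the same on both strands, is in capitals, and the sequences are those of RefSeq on GRCm38.p6. The Cish stretch (chr9:107296659-107296678, plus strand) opens at the annotated start, and its motifs begin at +1 and +12 counted from that start. The Csn2 stretch (chr5:87699486-87699545, minus strand) holds 1 motif, at -93.
Cish: TTCCTGGAAagTTCTTGGAA
Csn2: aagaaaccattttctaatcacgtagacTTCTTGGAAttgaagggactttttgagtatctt
The motif was in 2726 of 32851 promoter windows of 250 bases before to 50 after the start (8.30%), or in 9.55% of genes with a window. Of the 18 genes of the STAT5 list with a window, 3 held it: Cish, called higher, and Socs3 and Bcl6, both called lower. Bcl6, a transcriptional repressor, stood below the minimum in both groups, at 0.145 FPKM in BM LSC and 0.664 FPKM in NBM. A match is a description of letters and does not show that a factor bound there.

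HOXA9 and HOXA10 are homeobox factors of early progenitors, and PBX3 and MEIS1 are cofactors that bind DNA with them. Pbx3 stood at 6.0 FPKM in BM LSC (4.09 to 7.92), 4.17 in SPL, 5.01 in BL and 3.83 in AT LSC, against 0.379 FPKM in NBM (0.165 to 0.593) (log2 fold 3.98 ± 0.47, q listed as 0, authors' deposited table). Hoxa9 (chr6:52224054-52227370 in mm10) stood at 3.65 FPKM in BM LSC (2.40 to 4.90), 2.03 in SPL, 2.78 in BL and 2.63 in AT LSC, against 0.771 FPKM in NBM (0.434 to 1.11) (log2 fold 2.24 ± 0.40, q 8.24e-07, authors' deposited table). Every LSC group stood above NBM for both genes. Whether fragments of the human NUP98-HOXA9 oncogene, which the leukemia cells carried, align to mouse Hoxa9 was not tested. The Hoxa9 level may therefore not be that of the mouse gene alone.

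Hoxa10 was higher too, at 1.31 against 0.496 FPKM (fold 1.4 ± 0.45, q 0.0121), and so was Hoxa5, at 1.21 against 0.276 FPKM (2.12 ± 0.81, q 0.0427), in the authors' deposited table. Hoxa3, Hoxa4, Hoxa5 and Hoxa6 carry 1 joint locus there (chr6:52169062-52213597), so their fragments may not be separable. The cofactor Meis1 stood at 12.1 FPKM in BM LSC and 6.65 FPKM in NBM, and its q of 0.0774 in the authors' deposited table missed the threshold. So did Hoxa7 (5.33 and 2.91 FPKM, q 0.0742) and Hoxa6 (4.89 and 1.74 FPKM, q 0.0701) in the authors' deposited table. Of 9 tested genes of the HOXA list, 4 were higher and 0 lower, and over the 14 listed genes tested at any level the median fold was 1.45, with 5 higher and 0 lower. The call of Hoxa5 is lost where folds are rescaled to total counts or upper quartiles. Outside the list and chosen after their values were seen, 3 neighbouring Hoxb genes were higher: Hoxb7 (3.48 and 0.873 FPKM), Hoxb6 (1.59 and 0.558 FPKM) and Hoxb5 (1.76 and 0.463 FPKM), with folds of 2.00 ± 0.44, 1.51 ± 0.48 and 1.93 ± 0.45 in the authors' deposited table.

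Genes of stem and progenitor cells moved both ways, 6 higher and 4 lower of 18 tested, or 7 and 7 of 26 tested at any level, with a median fold of 0.42. Higher were Thy1, a surface protein of stem cells and T cells (4.55 FPKM in BM LSC and 0.673 FPKM in NBM, fold 2.76 ± 0.42 in the authors' deposited table), and Gfi1b, a repressor of erythroid and megakaryocyte cells (16 and 2.83 FPKM, fold 2.50 ± 0.37 in the same table). Mycn, a MYC family factor, stood at 1.36 against 0.203 FPKM, and Angpt1, the ligand angiopoietin-1, at 8.02 against 3.04 FPKM. Slamf1 (2.15 and 0.88 FPKM) and Ikzf2 (1.70 and 0.761 FPKM) were the others called higher. Lower were Flt3, the receptor of lymphoid and dendritic progenitors (1.29 and 4.64 FPKM, fold -1.85 ± 0.36 in the authors' deposited table), and Cd27, a receptor of the tumour necrosis factor family (3.15 and 17.3 FPKM, fold -2.46 ± 0.50 in that table). Ly6a, which encodes the stem cell antigen SCA-1 (105 and 199 FPKM), was lower as well. It is 1 of 6 neighbouring genes, most of the Ly6 family, called lower with folds of -1.07 to -0.92 in the authors' deposited table. Whether these entries share fragments was not tested. Cd34 stood at 24.3 FPKM in BM LSC and 39.97 FPKM in NBM, with no call (q 0.142 in the authors' deposited table). Cd34 and Ly6a, both known from mouse progenitors, were thus above 20 FPKM in both groups.

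**Figure D2:**
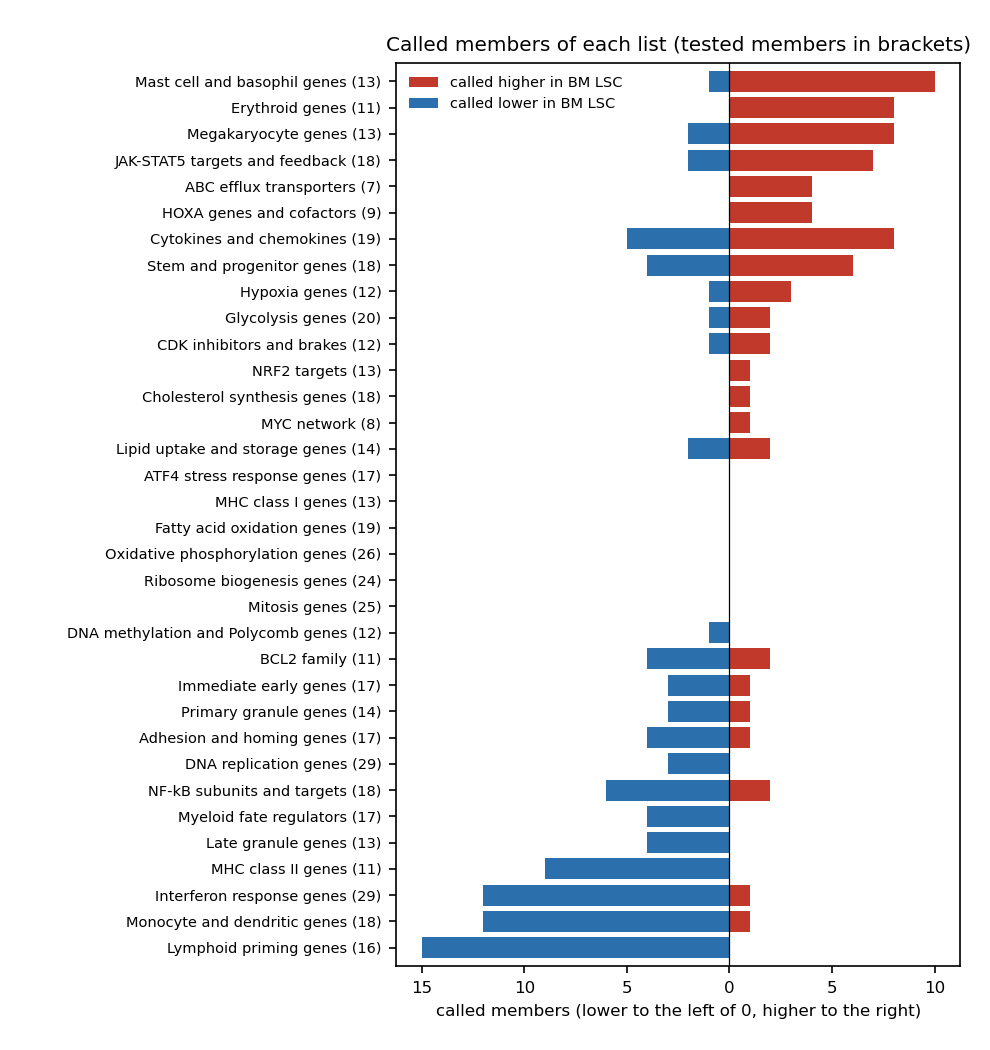
Number of genes called higher (right of 0) and lower (left of 0) in BM LSC for each of 34 gene lists, counted among genes at 1 FPKM or more in either group, with the number tested in brackets. Mast cell and basophil genes lead on the right with 10 of 13, and lymphoid priming genes on the left with 15 of 16.

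Mast cell genes were among the most strongly raised in BM LSC. Mast cells store histamine and proteases in granules, and Hdc encodes the enzyme that makes histamine. Hdc stood at 372 FPKM in BM LSC (252 to 491), 166 in SPL, 326 in BL and 228 in AT LSC, against 21.6 FPKM in NBM (15.3 to 28.0) (log2 fold 4.10 ± 0.31, authors' deposited table). Cma1, the protease chymase, stood at 205 FPKM in BM LSC (136 to 274), 70.8 in SPL, 188 in BL and 76.9 in AT LSC, against 2.12 FPKM in NBM (1.03 to 3.2), a ratio of 97.1 and a log2 fold of 6.6 ± 0.44 (authors' deposited table). The bounds of BM LSC and NBM stood far apart for both genes.

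Of 13 tested genes of the mast cell and basophil list, 10 were higher and 1 lower, and over the 14 listed genes tested at any level the median fold was 2.83. Cpa3, mast cell carboxypeptidase, stood at 113 against 13.8 FPKM, Mcpt4, a chymase-type protease, at 13.5 against 0.415 FPKM, and the tryptase genes Tpsb2 and Tpsab1 at 16.1 against 0.581 FPKM and 5.06 against 0.349 FPKM. Their log2 folds in the authors' deposited table were 3.04 ± 0.35, 5.03 ± 0.53, 4.79 ± 0.48 and 3.86 ± 0.51 in that order. Gata2, the transcription factor of mast cells and early progenitors (10.9 and 1.78 FPKM), Ms4a2, a chain of the IgE receptor (29.7 and 6.17 FPKM), and Il1rl1, the interleukin-33 receptor (7.24 and 0.755 FPKM), were higher too. The exception was Prss34, a basophil protease, at 204 FPKM in BM LSC and 456 FPKM in NBM (log2 fold -1.16 ± 0.30, authors' deposited table). Another basophil protease, Mcpt8, was higher, at 234 against 82.2 FPKM. Fcer1a, the binding chain of the IgE receptor, was not called, at 8.31 and 8.24 FPKM. In pooled bulk libraries, more cells of a type and more RNA per cell cannot be told apart, here and in every comparison that follows.

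Of 11 tested erythroid genes 8 were higher and 0 lower, and of 16 tested at any level 10 were higher and 0 lower (median 2.01). Gata1, a master factor shared by red cell, platelet and mast cell lineages, stood at 25.3 FPKM in BM LSC (17.8 to 32.9), 49.1 in SPL, 15.6 in BL and 8.24 in AT LSC, against 3.51 FPKM in NBM (2.07 to 4.94) (log2 fold 2.85 ± 0.37, q 1.07e-12, authors' deposited table). Epor, the erythropoietin receptor, stood at 1.96 against 0.170 FPKM, Rhag, a red cell membrane channel, at 11.3 against 1.53 FPKM, and the carbonic anhydrases Car1 and Car2 at 71.1 against 13.1 FPKM and 287 against 57.7 FPKM. The transferrin receptor Tfrc was not called (5.28 and 7.57 FPKM). Globin folds were alike in size and unlike in error: the entry Beta-s, chosen after its values were seen, was called at 376 and 41.4 FPKM (log2 fold 3.18 ± 0.35, authors' deposited table), and Hbb-b2, at 91.6 and 8.67 FPKM, was not (3.40 ± 1.68 there). Globin genes of a cluster are near-identical copies, so their levels are uncertain.

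Of 13 tested megakaryocyte genes 8 were higher and 2 lower (median 1.60 over the 15 tested at any level). The lineage lists overlap, so their counts are not separate observations. Gata1 is in both the erythroid and the megakaryocyte list, and Gata2, named above with the mast cell genes, is in the erythroid list. Itga2b, the alpha chain of the platelet fibrinogen receptor, stood at 18.8 FPKM in BM LSC (13.2 to 24.4), 11.5 in SPL, 5.14 in BL and 4.80 in AT LSC, against 2.64 FPKM in NBM (1.65 to 3.64) (log2 fold 2.83 ± 0.35, authors' deposited table). Itgb3, its partner chain, stood at 7.77 against 2.68 FPKM, Pf4, platelet factor 4, at 34.9 against 7.17 FPKM, and Gp1ba and Gp9, subunits of the von Willebrand factor receptor, at 3.70 against 0.637 FPKM and 8.21 against 1.99 FPKM. Among the lower genes was Selp, P-selectin, at 0.744 against 2.73 FPKM. Fli1 (9.75 and 9.52 FPKM) and Tubb1 (5.06 and 5.16 FPKM) were not called.

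**Figure D3:**
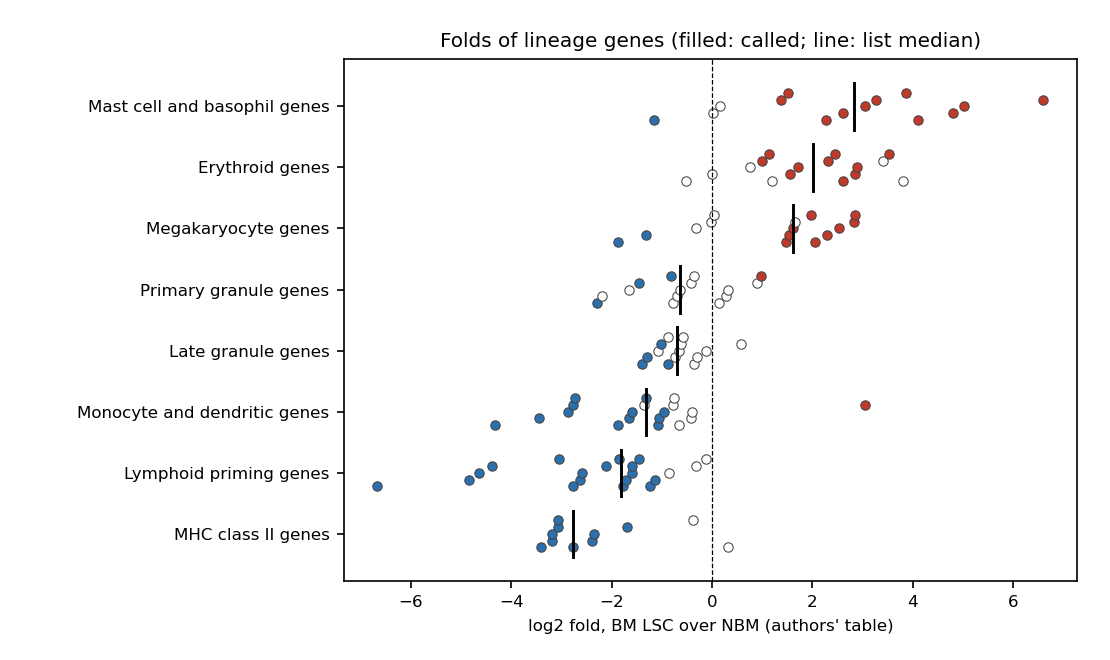
Log2 fold of BM LSC over NBM (horizontal, authors' deposited table) for every gene of 8 lineage and antigen presentation lists tested at any level, filled where called and open where not, with a bar at each list's median. The medians run from 2.83 for mast cell and basophil genes to -2.76 for MHC class II genes.

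Granule genes of neutrophil precursors were lower or not called, with the exception of Cst7. Mpo, myeloperoxidase of the primary granules, stood at 107 FPKM in BM LSC (66.7 to 147), 120 in SPL, 6.23 in BL and 113 in AT LSC, against 524 FPKM in NBM (406 to 641) (log2 fold -2.30 ± 0.31, authors' deposited table). Ctsg, cathepsin G, was lower at 39.5 against 69.9 FPKM, while Elane (85.7 and 270 FPKM) and Prtn3 (26.0 and 118 FPKM), the elastase and proteinase 3 genes with 1 joint locus, had standard errors of 0.79 and 1.41 in the authors' deposited table and were not called. Cst7, an inhibitor of granule proteases, was the 1 primary granule gene called higher, at 107 against 54.0 FPKM. In all, 1 of 14 tested primary granule genes was higher and 3 lower, with a median of -0.64 over 15 tested at any level. Of 13 late granule genes 4 were lower and 0 higher (median -0.70 over 14). Those lower were Lyz2, lysozyme (121 and 299 FPKM), Chi3l3, a chitinase-like protein (116 and 305 FPKM), S100a8, a calcium-binding protein (319.5 and 645 FPKM), and Lcn2, lipocalin-2 (38.6 and 71.0 FPKM). The calls of S100a8 and Lcn2, with q of 0.0466 and 0.0451 in the authors' deposited table, are lost under other settings. Csf3r, the receptor of the granulocyte growth factor G-CSF, fell to 2.15 FPKM in BM LSC, against 8.76 FPKM in NBM.

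Monocyte and dendritic cell genes were lower in BM LSC, 12 of 18 tested against 1 higher, with a median fold of -1.32 over 19 tested at any level. Irf8, the factor that directs progenitors to monocytes and dendritic cells, stood at 0.544 FPKM in BM LSC (0.298 to 0.791), 0.710 in SPL, 0.863 in BL and 0.838 in AT LSC, against 10.9 FPKM in NBM (7.59 to 14.2) (log2 fold -4.33 ± 0.39, q listed as 0, authors' deposited table). All 4 LSC groups stood below 1 FPKM. Csf1r, the receptor of the macrophage growth factor, stood at 3.38 FPKM in BM LSC, 5.02 in SPL, 54.2 in BL and 22.9 in AT LSC, against 22.4 FPKM in NBM (log2 fold -2.73 ± 0.30, authors' deposited table). For this gene the LSC groups were split, with BM and SPL low and BL above NBM. F13a1, a coagulation factor chain of monocytes (3.76 and 40.8 FPKM), Irf5 (5.25 and 15.9 FPKM), Klf4 (1.02 and 3.24 FPKM) and Cd14, the endotoxin co-receptor (8.81 and 21.9 FPKM), were lower. The exception was Emr1, which encodes the surface protein F4/80, at 40.2 FPKM in BM LSC, 16.9 in SPL, 122 in BL and 46.0 in AT LSC, against 4.84 FPKM in NBM (log2 fold 3.05 ± 0.32, authors' deposited table). Macrophage markers other than Emr1 were lower or uncalled, apart from Spic (1.67 and 0.661 FPKM, called higher): C1qb stood at 4.34 against 25.5 FPKM and Mrc1 at 0.760 against 2.84 FPKM, both called lower. Over the 14 macrophage markers, 5 of 10 tested were lower and 2 higher, and their summed level was 71.1 FPKM in BM LSC and 76.1 FPKM in NBM.

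MHC class II molecules display peptides to helper T cells, and their genes are switched on together by the coactivator CIITA, which docks on factors bound to the X and Y boxes of their promoters. H2-Aa stood at 57.3 FPKM in BM LSC (40.2 to 74.4), 93.1 in SPL, 107 in BL and 67.2 in AT LSC, against 523 FPKM in NBM (401 to 646) (log2 fold -3.19 ± 0.27, authors' deposited table). The other classical chains H2-Ab1 (54.3 and 453 FPKM), H2-Eb1 (25.5 and 214 FPKM) and H2-Eb2 (3.80 and 34.7 FPKM) had folds of -3.06, -3.07 and -3.19 in the authors' deposited table. The invariant chain Cd74 (169 and 1149.7 FPKM) and the peptide loading genes H2-DMa (21.7 and 70.2 FPKM) and H2-DMb1 (14.5 and 74.4 FPKM) were lower, as was Ciita itself, at 0.723 FPKM in BM LSC against 7.70 FPKM in NBM (fold -3.41 ± 0.38 in the authors' deposited table). The 4 LSC groups stood below NBM for each of these genes. Of 11 tested genes of the list, 9 were lower and 0 higher, with a median of -2.76. The remaining 2, H2-Oa (17.4 and 13.9 FPKM) and H2-Ob (6.34 and 8.21 FPKM), which form the modulator of peptide loading, were not called.

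The Y box CTGATTGG is shown in capitals in the promoters of a pair of the genes that were lower together, H2-Aa (chr17:34287834-34287913, minus strand) and H2-Eb1 (chr17:34305767-34305846, plus strand), from RefSeq on GRCm38.p6. It begins at -51 in H2-Aa and -62 in H2-Eb1.
H2-Aa: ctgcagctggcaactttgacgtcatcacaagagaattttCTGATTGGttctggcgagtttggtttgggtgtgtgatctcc
H2-Eb1: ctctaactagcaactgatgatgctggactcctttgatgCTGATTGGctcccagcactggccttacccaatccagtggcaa
These 8 letters, searched on both strands, were in 1346 of 32851 windows (4.10%), or 4.70% of genes, and in 4 of the 8 MHC class II genes with a window: H2-Aa, H2-Eb1 and H2-Eb2, called lower, and H2-Oa, not called. MHC class I genes gave a contrast in level: 0 of 13 tested were called, with a median of -0.13, and H2-K1 stood at 363 and 369.9 FPKM and B2m, the common light chain, at 429 and 444 FPKM, BM LSC first.

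Genes of the lymphoid priming list were lower in nearly all cases. The list holds genes of early lymphoid progenitors and also genes of B and T cells themselves, such as Blnk and Cd79b. Of 16 tested, 15 were lower and 0 higher. Of 20 tested at any level 17 were lower, with a median of -1.81. Dntt, the enzyme that adds bases to antigen receptor joints, stood at 0.313 FPKM in BM LSC (0.143 to 0.483), 0.248 in SPL, 0.00429 in BL and 0.00196 in AT LSC, against 31.8 FPKM in NBM (23.1 to 40.5) (log2 fold -6.67 ± 0.44, authors' deposited table). Igll1, part of the surrogate light chain of early B cells, stood at 0.630 against 18.1 FPKM, Blnk, a B cell adaptor, at 0.0922 against 1.93 FPKM, and Cd79b, a signalling chain of the B cell receptor, at 2.42 against 16.6 FPKM. Notch1 (0.366 and 1.20 FPKM) and Il7r, the interleukin-7 receptor (1.80 and 3.96 FPKM), were lower too. Ikzf1, a factor that acts from early progenitors on, was the 1 tested gene not called, at 7.26 and 9.10 FPKM.

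Markers of lymphocytes moved with these genes, and their part in the result was not tested. The marker lists overlap the lymphoid priming list, with Igll1 and Cd79b among the genes in both, so they are not separate observations. The 10 B cell markers found summed to 7.92 FPKM in BM LSC and 149.6 FPKM in NBM, with 5 of 6 tested lower, the 7 plasma cell markers to 9.96 and 128 FPKM, with 3 of 4 lower, and the 7 plasmacytoid dendritic cell markers to 28.9 and 113 FPKM, with 5 of 6 lower. Igj, the joining chain of secreted antibodies, is counted in both the B cell and the plasma cell sums. It alone gave 3.48 FPKM in BM LSC and 109 FPKM in NBM. The T cell receptor chains Cd3e (0.415 and 14.9 FPKM), Cd3g (0.463 and 12.5 FPKM) and Cd3d (0.239 and 4.59 FPKM) were lower, with folds of -5.16 ± 0.49, -4.76 ± 0.53 and -4.27 ± 0.60 in the authors' deposited table. Over the 13 markers of T and NK cells found, 9 of 12 tested were lower and 2 higher, yet their summed level was 456 FPKM in BM LSC and 215 FPKM in NBM, and the 2 higher genes made up most of the BM LSC sum. These were Gzmb, granzyme B (238 and 18.4 FPKM), and Nkg7, a granule membrane protein (203 and 110.2 FPKM). Granzymes A and K went the other way, Gzma at 1.36 against 4.38 FPKM and Gzmk at 0.215 against 5.12 FPKM, and so did perforin, Prf1 (chosen after its values were seen), at 1.79 against 4.06 FPKM. No marker of the B, plasma, T and NK, macrophage or plasmacytoid lists was at 0 in either group. Mature neutrophil markers summed to 69.4 FPKM in BM LSC and 109.97 FPKM in NBM with 1 of 9 lower. Endothelial markers summed to 159.6 and 328 FPKM with 2 of 3 lower. Most of these endothelial sums was Ly6c1, at 146 and 308 FPKM, and 7 of the 10 endothelial markers stood below 1 FPKM in both groups. Stromal markers summed to 43.9 and 45.01 FPKM with none called of 1 tested. Adipocyte markers summed to 4.34 FPKM in BM LSC and 4.58 FPKM in NBM, with Cfd at 0 in BM LSC and Plin1 at 0 in NBM.

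Cytokine genes moved both ways: of 19 tested, 8 were higher and 5 lower (median 0.88 over 24 tested at any level). Csf2 (the gene of GM-CSF, a growth factor of granulocytes and macrophages) stood at 6.0 FPKM in BM LSC (3.78 to 8.21), 2.52 in SPL, 2.77 in BL and 79.8 in AT LSC, against 0.286 FPKM in NBM (0.0637 to 0.509) (log2 fold 4.39 ± 0.62, authors' deposited table). Lif, a cytokine of the interleukin-6 family, stood at 7.63 FPKM in BM LSC and 2.62 to 5.63 in the other LSC groups, against 0.535 FPKM in NBM (log2 fold 3.84 ± 0.37, authors' deposited table). Il6 (9.84 and 1.95 FPKM), Csf1 (2.77 and 0.467 FPKM) and the chemokines Ccl3 (114 and 32.8 FPKM) and Ccl9 (64.8 and 14.2 FPKM) were higher. Lower were Ccl5 (12.4 and 79.5 FPKM), a chemokine of T and NK cells, Cxcl10 (1.34 and 6.42 FPKM), an interferon-induced chemokine, Ccl22 (0.575 and 2.70 FPKM), Il18 (0.193 and 1.14 FPKM) and Il1rn, the interleukin-1 antagonist (2.27 and 6.05 FPKM). Il1b (5.30 and 3.75 FPKM) and Tnf (2.88 and 2.15 FPKM) were not called.

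NF-kB subunits and targets gave 2 higher, Nfkb1 (19.8 and 11.3 FPKM) and Ier3 (80.4 and 38.4 FPKM), and 6 lower of 18 tested (median -0.42 over 20). The 6 include Bcl2a1b and Bcl2a1d, near-identical copies that are not separate measurements. The largest of the lower folds was that of Cd83, a surface protein of mature dendritic cells, at 1.12 against 10.6 FPKM (-3.24 ± 0.37 in the authors' deposited table). Among 17 immediate early genes 1 was higher and 3 were lower (median -0.08 over 23), and Fos (130.5 and 209.6 FPKM) was not called. Over all tested genes kept by level, 8.4% were higher and 7.54% lower. Of 29 tested genes of the interferon response, 12 were lower and 1 higher (median -0.67 over 32). Ifit3 (0.454 and 2.47 FPKM), Ifi44 (0.0816 and 1.11 FPKM), Ifi27l2a (3.60 and 20.3 FPKM) and the transcription factor Irf7 (4.47 and 11.7 FPKM) were lower, and Isg20, a nuclease (14.3 and 6.1 FPKM), was higher. The abundant members Ifitm1 (359 and 361 FPKM) and Ifitm3 (285 and 378 FPKM) were not called.

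Survival and efflux genes moved in part. Among BCL2 family genes, Bcl2 itself was higher (14.8 and 5.01 FPKM, fold 1.56 ± 0.44 in the authors' deposited table) beside Bcl2l1, and Bcl2l11, which encodes the killer protein BIM, was lower (0.436 and 2.54 FPKM, fold -2.54 ± 0.46 in that table). The lower entries Bcl2a1a, Bcl2a1b and Bcl2a1d, at 11 to 11.7 FPKM in BM LSC and 52.5 to 55.2 FPKM in NBM, are near-identical copies and are not separate measurements. Mcl1 was not called (4.92 and 7.0 FPKM). Of 7 tested ABC transporters, 4 were higher and 0 lower, with a median of 0.82 over 10: the drug pumps Abcb1a (4.06 and 1.55 FPKM), Abcg2 (7.57 and 2.72 FPKM) and Abcc1 (8.41 and 3.48 FPKM), and the cholesterol exporter Abcg1 (14.4 and 8.28 FPKM), whose call is lost under other scalings. Nqo1, a quinone reductase, was the 1 of 13 NRF2 targets called, at 5.33 against 0.684 FPKM (fold 2.96 ± 0.43 in the authors' deposited table).

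Cxcr4, the receptor for the marrow chemokine CXCL12, stood at 1.98 FPKM in BM LSC (1.23 to 2.73), 2.93 in SPL, 1.99 in BL and 2.26 in AT LSC, against 20.2 FPKM in NBM (14.4 to 25.9) (log2 fold -3.35 ± 0.34, q listed as 0, authors' deposited table). The 4 LSC groups lay close together and well below NBM. The adhesion receptors Cd44 (8.56 and 16.6 FPKM) and Selplg, the selectin ligand (65.3 and 110.5 FPKM), were lower, and Itga6, a laminin receptor chain, was higher (1.54 and 0.512 FPKM). Of 17 tested adhesion genes 1 was higher and 4 lower, with a median of -0.24 over 21. The shares over all tested genes kept by level were 8.4% higher and 7.54% lower. Itga4 (2.83 and 3.11 FPKM) and Itgb1 (4.88 and 4.32 FPKM), the chains of the receptor VLA-4, were not called.

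Several lists of growth and energy metabolism gave no call, and others gave calls, some in both directions. Among all tested genes at 1 FPKM or more in either group, 15.9% were called. None of 25 tested mitosis genes was called, with a median of -0.20, and Mki67, the proliferation antigen, stood at 13 FPKM in BM LSC, 17.1 in SPL, 2.90 in BL and 6.51 in AT LSC, against 16.2 FPKM in NBM. Of 29 DNA replication genes 3 were lower (Tk1, Cdt1 and Gins1) and 0 higher (median -0.39). None of 24 ribosome biogenesis genes (median 0.01), 26 oxidative phosphorylation genes (-0.14), 19 fatty acid oxidation genes (0.18) or 17 ATF4 targets (0.07) was called. Myc was not called (33.5 and 39.2 FPKM). Among CDK inhibitors, Cdkn2c (3.72 and 1.15 FPKM) and Cdkn2a (1.20 and 0.119 FPKM, fold 3.33 ± 0.99 in the authors' deposited table) were higher and Btg2 lower (36.0 and 77.6 FPKM). Hexokinase Hk1 (24.7 and 9.34 FPKM) and the glucose transporter Slc2a3 (17.9 and 7.45 FPKM) were higher. Ldhb, lactate dehydrogenase B, was lower (1.31 and 6.13 FPKM). These made 2 higher and 1 lower of 20 glycolysis genes, a share near that over all tested genes. Of 14 lipid genes, Cd36, the fatty acid receptor (15.9 and 2.16 FPKM, fold 2.88 ± 0.40 in the authors' deposited table), and Fabp5, a fatty acid carrier (113 and 47.8 FPKM), were higher and 2 were lower. Of 12 hypoxia genes 3 were higher, Bnip3 (22.7 and 8.68 FPKM), Ero1l (4.5 and 1.37 FPKM) and Ndrg1 (10.9 and 3.78 FPKM), and 1 was lower. Dnmt3b was not called at 1.35 and 0.931 FPKM, 1 of 12 tested DNA methylation and Polycomb genes, Rnf2 (2.65 and 5.77 FPKM), was lower, and Cdkn1c was below 1 FPKM in both groups.

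The largest positive folds, among called genes with 5 FPKM or more in the higher group and more than 3 estimated counts in both groups, included genes better known from secretory and reproductive tissues. Svs2, a seminal vesicle protein, stood at 7.44 FPKM in BM LSC against 0.0416 FPKM in NBM (log2 fold 7.48 ± 0.81, authors' deposited table), and the NBM level rests on 4 estimated counts. Erv3, an endogenous retroviral sequence, stood at 26.9 FPKM in BM LSC, 3.61 in SPL, 2.38 in BL and 1.4 in AT LSC, against 0.210 FPKM in NBM (log2 fold 7.0 ± 0.52, authors' deposited table). The cysteine-rich secretory protein genes Crisp1 (117 and 0.937 FPKM) and Crisp3 (94.1 and 0.768 FPKM) had log2 folds of 6.96 ± 0.46 and 6.94 ± 0.47 (authors' deposited table). BM LSC were the highest of the LSC groups for these 4 genes. Chosen after their values were seen, Tph1, the first enzyme of serotonin synthesis, stood at 135 FPKM in BM LSC with wide bounds (48.4 to 221), against 3.79 FPKM in NBM, and Csn1s2b, a casein, at 11.3 against 0.0586 FPKM, where NBM held 3 estimated counts or fewer. Akr1c18, chosen in the same way, inactivates progesterone and stood at 140.2 FPKM in BM LSC, 91.7 in SPL, 329 in BL and 205 in AT LSC, against 3.59 FPKM in NBM. Nepn, also chosen after its values were seen, was the 1 called gene listed at 0 FPKM in NBM, at 1.97 FPKM in BM LSC. By the same rule the negative folds below that of Dntt in size included those of the chemokine receptors Cxcr3 (-5.49 ± 0.60) and Cxcr6 (-5.12 ± 0.86), and of Eltd1, a receptor of endothelium (-5.13 ± 0.38), in the authors' deposited table. Eltd1 stood at 0.354 FPKM in BM LSC and 12.4 FPKM in NBM.

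Many called genes sit side by side in families. Runs of 4 or more neighbouring genes called in the same direction numbered 19 among the higher genes, with 116 genes or 15.8% of those called higher, and 22 among the lower genes, with 124 genes or 18.8% of those called lower. In several runs the folds were almost equal. The run of pregnancy-specific glycoprotein genes, which are known from placenta (13 genes with Ceacam3, chr7:17074040-18821591), had folds of 5.25 to 5.80, with 3.28 to 21.7 FPKM in BM LSC and 0.0862 to 0.436 FPKM in NBM, in the authors' deposited table. The 11 Serpina3 protease inhibitor genes (chr12:104112724-104414329) had folds of 2.45 to 2.55, with 77.6 to 524 FPKM in BM LSC and 13.8 to 90.8 FPKM in NBM, and Serpina3f and Serpina3g carry the same locus in the authors' deposited table. The 8 Ces2 carboxylesterase genes (chr8:104734003-105020410) lay at 2.74 to 2.84, and the granzyme genes from Gzme to Gzmb (chr14:56117619-56262260) at 3.46 to 3.70, in the authors' deposited table. The 9 vomeronasal receptor genes of the Vmn2r family, next to Clec4e and Clec4d on chromosome 6, lay at 4.25 to 4.52 in the authors' deposited table. In the Serpina3 and Ces2 families the whole range of folds was smaller than the median standard error of a gene, 0.31 and 0.43. Genes of such families share long stretches of sequence, so these entries may share fragments and are not separate measurements. Without genes in runs, a count made after the data were seen, 618 genes were higher and 535 lower.

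Runs among the lower genes included the 4 MHC class II genes above, 12 genes of a region on chromosome 1 that holds the interferon-inducible Ifi200 family (chr1:173521311-175660853), with folds of -4.5 to -0.75, and 8 genes of the Ms4a region on chromosome 19, from -3.85 to -2.43, in the authors' deposited table. Killer cell receptor genes from Klrd1 to Klra5 on chromosome 6 lay at 0.0418 to 0.596 FPKM in BM LSC and 1.01 to 7.09 FPKM in NBM. Type I interferon genes of the Ifna cluster on chromosome 4 were called lower in 2 runs, with 0.0226 to 0.0540 FPKM in BM LSC and 1.28 to 1.95 FPKM in NBM in the run from Ifna7 to Ifna1.

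**Figure D4:**
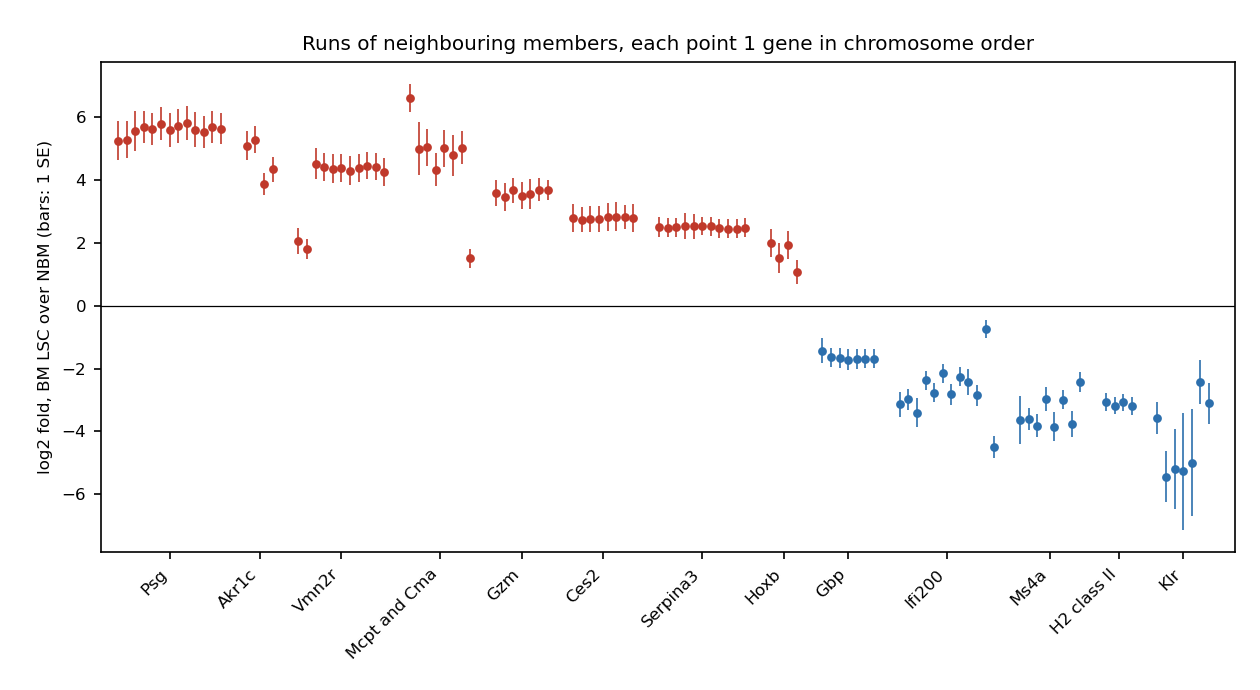
Log2 fold of BM LSC over NBM (vertical, authors' deposited table) for genes of 13 runs of neighbouring called genes, in chromosome order, with bars of 1 standard error. The Psg, Vmn2r, Gzm, Ces2, Serpina3 and Gbp genes have almost equal folds within their runs, while the Akr1c and Mcpt genes differ among themselves. Folds in the Ifi200 run differ too, and the lowest, -4.5, is that of Kmo, a neighbour outside the family.

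Few genes were called between LSC of spleen and marrow, and a gene that was not called is not shown to be equal. Only genes kept by their level in BM LSC or NBM were counted, so genes expressed in SPL LSC alone are left out. In the authors' deposited table of SPL LSC over BM LSC, which shares the BM LSC libraries with the comparison above, 222 of 8686 genes tested were called (2.56%), 86 higher and 136 lower in SPL LSC. Of 13 tested mast cell and basophil genes 7 were lower in SPL LSC and 0 higher. This stood beside 9 of 17 immediate early genes lower and 0 higher and 7 of 19 cytokine genes lower and 1 higher. Markers of other cells differed too, with 5 of 12 T and NK cell markers and 4 of 6 B cell markers higher in SPL LSC, and their part in the result was not tested. Tpsb2 stood at 0.514 FPKM in SPL LSC against 16.1 FPKM in BM LSC (log2 fold -4.97 ± 0.56, authors' deposited table), at about the NBM level of 0.581 FPKM. Cpa3 (36.9 FPKM in SPL LSC and 113 FPKM in BM LSC), Cma1 (70.8 and 205 FPKM) and Fcer1a (2.18 and 8.31 FPKM) were also lower in SPL LSC. Erythroid Car1 was higher, at 239 FPKM in SPL LSC and 71.1 FPKM in BM LSC. Among 18 tested STAT5 genes, Osm alone was called, lower at 12.4 FPKM in SPL LSC against 33.7 FPKM in BM LSC, and none of 9 HOXA and cofactor genes or of 11 MHC class II genes was called.

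**Figure D5:**
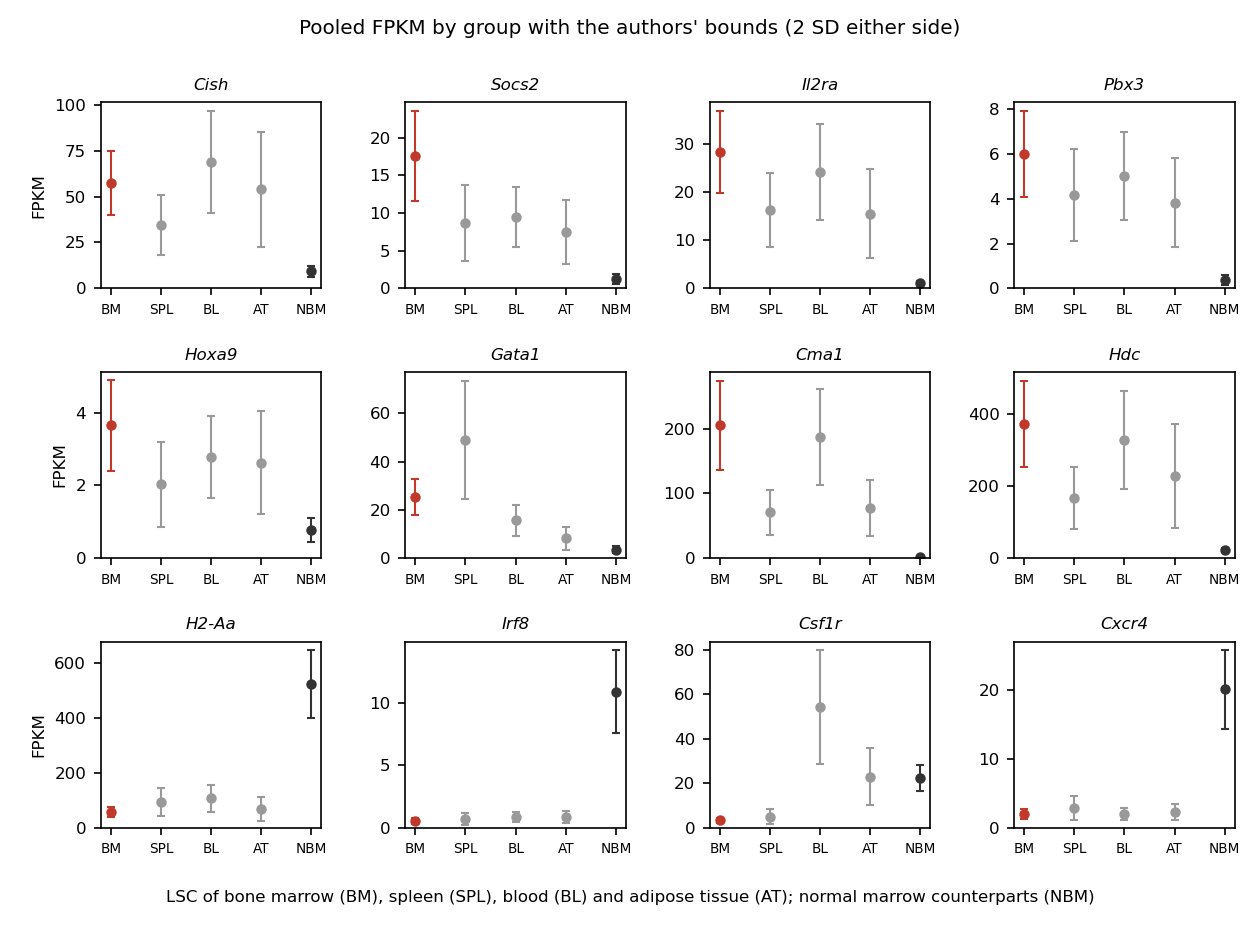
Pooled FPKM of 12 genes in LSC of marrow (BM), spleen (SPL), blood (BL) and adipose tissue (AT) and in normal marrow counterparts (NBM), with the authors' bounds of 2 SD either side as bars. Cish, Socs2, Il2ra, Pbx3, Hoxa9, Gata1, Cma1 and Hdc are lowest in NBM, H2-Aa, Irf8 and Cxcr4 are highest in NBM, and Csf1r is low in BM and SPL LSC and highest in BL LSC.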

How the data were processed

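RNA of BM LSC and NBM, 3 libraries each, was profiled with low-input SMARTer and Nextera XT libraries, per the labels' protocols. Trimmomatic 0.32, Cufflinks 2.0.2 and Cuffdiff were used on mm10, per the submitters' processing notes. The sources used here do not give the aligner, annotation, Cuffdiff version or strand use. Pooled FPKM per gene and group with bounds 2 SD either side, pooled estimated counts, and Cuffdiff tables with log2 fold, p-value and q-value for 10 pairs were deposited by the authors. No column held a single library, so no count test was possible and the authors' tests are used as theirs.

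A Benjamini-Hochberg adjustment over all 10 pairs gave the deposited q-value to within 1.70e-06. The standard error implied by fold and statistic equalled that from the bounds within 1% in 100% of genes. Genes at 1 FPKM or more in either group were kept; status OK and q below 0.05 made a call. Computations used Python 3.11.15 with pandas 2.3.3 and numpy 2.4.6, and were tested on simulated data. The smallest difference that can be seen depends on level: the median standard error was 0.29 at 100 FPKM or more and 0.42 at 1 to 2 FPKM. Coordinates are 1-based on mm10.

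The genes named were the 12 largest folds in each direction among called genes at 5 FPKM or more in the higher group with more than 3 estimated counts in both, up to 4 called genes of each list with the smallest q, and 20 landmark genes; others are said to be chosen after their values were seen or belong to a list. Not every gene picked by the rule is described, and some are not reported here. Members and lists (740 symbols, 723 found, 560 at 1 FPKM or more) were chosen with earlier results of these data known. Where a group held 3 estimated counts or fewer, no fold is given. Alternatives changed the scaling, adjustment, thresholds, level filter, pseudocount and entries.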

Additional observations from a re-analysis of the deposited data

How the results depend on the processing

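Of the 734 genes called higher and 659 called lower, counts stayed within 1.5 times under folds centred on their median (738 and 625), total count scaling (684 and 691), upper quartile scaling (687 and 673), adjustment within the comparison (698 and 623), q below 0.01 (577 and 508), a minimum fold of 2 (676 and 604) and a mean level of 1 FPKM or more (638 and 543). A level minimum of 5 FPKM left 398 higher and 321 lower, since fewer genes were tested, and no level filter gave 1047 higher and 1006 lower. Leaving out genes in runs, chosen after seeing the data, gave 618 and 535. No direction turned in the 43 lists followed, but a list with equal numbers called higher and lower could not turn. Without the level filter, 3 lists came to equal numbers and 3 others moved away from them. At q below 0.01, 1 list moved away from equal numbers. In the 221 genes followed, the fold of a called gene could not turn, so their direction was not tested. Rescaling shifted log2 folds by 0.03, -0.05 or -0.04, against a smallest called fold of 0.72, and the other settings keep the sign. The calls of Hoxa5 and Abcg1 were lost under both count scalings, at folds of 2.07 and 0.75 under total count scaling, those of Lcn2, S100a8, Egln1, Clec4a2 and Tlr1 under centring, and 7 under adjustment within the comparison (these 5, Hoxa5 and Gins1). At q below 0.01, 20 of the genes lost their call. No paired analysis was possible because the deposited columns pool the 3 libraries of a group; for the same reason no library could be left out, and edgeR and DESeq2 were not run. A pseudocount of 1 FPKM moved 122 of 221 folds by more than their standard error.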
